A study of Mus musculus with 2 samples.

Results

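The genes described here are 10 immediate early transcription regulators, Fos, Fosb, Jun, Junb, Jund, Egr1, Egr2, Nr4a1, Ier2 and Atf3, in splenic CD8 T cells that do or do not carry CD122. They were measured by every non-control probe that the scanner files name with one of these symbols or an older alias (Jund is written Jund1 there). That gave 13 of the 41174 different probes on the array, and 10 of the 19108 genes that its probes could be named for. Fosb, Ier2 and Junb had 2 probes each and the other genes 1, and each probe was printed once per array. The 2 groups were CD8+CD122+ cells and CD8+CD122- cells, both collected by sorting from the spleens of C57BL/6 mice. No treatment, engineered allele, age or sex is given in the labels, nor whether the spleens of several mice were pooled. CD122 is the beta chain shared by the receptors of interleukin 2 and interleukin 15. Amplified mRNA of both groups was hybridised together to each of 2 two-colour Agilent arrays. On array 1 the CD8+CD122+ cells were in Cy5 and the CD8+CD122- cells in Cy3, and on array 2, which the labels call a second trial, the dyes were exchanged. Every ratio below is CD8+CD122+ over CD8+CD122-. Whether new mice were used for the second trial is not in the labels, so errors over the 2 arrays describe the spread between hybridisations, which may be technical.

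Immediate early genes are transcribed within minutes of a signal, without the synthesis of new protein, because the factors that act on their promoters are already present in the cell. In T cells the antigen receptor, cytokines and stress all reach them, mainly through mitogen-activated protein kinases, calcium and cyclic AMP. Fos, Fosb, Jun, Junb, Jund and Atf3 encode basic leucine zipper proteins that pair with each other as AP-1 and related dimers. Egr1 and Egr2 encode zinc finger proteins, Nr4a1 encodes the orphan nuclear receptor Nur77, whose induction is widely used as a readout of antigen receptor signalling, and Ier2 encodes a small nuclear protein. Transcripts of this class are also known to be induced while tissue is dispersed into single cells.

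The members did not share a single pattern. Nr4a1 and the brighter Ier2 probe gave higher signals in CD8+CD122+ cells on each array, by 2.62-fold and 1.64-fold on average, while the dim Ier2 probe had log2 ratios near 0. Atf3, a dim probe, was also higher on each array, by 1.83-fold on average and mainly on array 2, and Egr2 was somewhat lower on both. Fos differed by array: its signal in CD8+CD122+ cells was 1.23-fold higher on array 1 and 3.63-fold lower on array 2. The higher Fos signal was in Cy5 on each array. The AP-1 partners Junb, Jund and Jun, the second EGR gene Egr1 and Fosb lay within 2-fold of equality on each array. No member probe passed the test across all probes, in which limma called 0 of 30794 probes (0.0%) at an adjusted p under 0.05.

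By the rule of size, which asks each array for at least 2-fold with the same sign and carries no p-value, 0 of the 13 member probes were higher and 0 were lower, where 0.253% of all 30794 tested probes were higher and 0.0812% lower. On array 1 alone no member probe was 2-fold apart (0.354% of all probes were 2-fold higher and 0.136% lower). On array 2 alone Nr4a1 and Atf3 were at least 2-fold higher, where 1.09% of probes were, and Fos was at least 2-fold lower, where 0.711% were. Of the 13 probes, 7 had positive ratios on both arrays (27.8% of all tested probes), 2 negative ratios on both (25.6%) and 4 opposite signs (46.6%). With median centring in place of loess these counts were 4, 1 and 8, and the shares of all tested probes were 15.6%, 15.1% and 69.3%. Egr1, Fosb and both Junb probes then had negative ratios on array 2, Jund was positive on both arrays, and the probe A_52_P109010, which 1 file names Fosb, was positive on array 1. With loess, each gene was also taken at its brightest probe. Then 6 of the 10 genes were positive throughout, 1 was negative throughout and 3 differed in sign between arrays (28.3%, 25.3% and 46.4% of all genes). The median log2 ratio of the 10 genes was 0.26 on array 1 and 0.27 on array 2. The same median over all tested genes, each at its brightest probe, was 0.012 on array 1 and -0.0063 on array 2. With median centring, Egr1 (-0.13), Fosb (-0.22) and Junb (-0.23) were negative on array 2 at that probe, so these gene counts and medians depend on the normalisation. At an unadjusted p under 0.05, limma listed 4 member probes, the brighter Ier2 probe (0.00191), Nr4a1 (0.0180), Egr1 (0.0206) and 1 Junb probe (0.0253), where 6.12% of all tested probes (1884) were listed, and 6.24% (1921) with an intensity trend and 5.77% (1776) with the robust version. In these sorted pools of cells, fewer cells with a transcript and less of it per cell cannot be told apart.

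**Figure D1:**
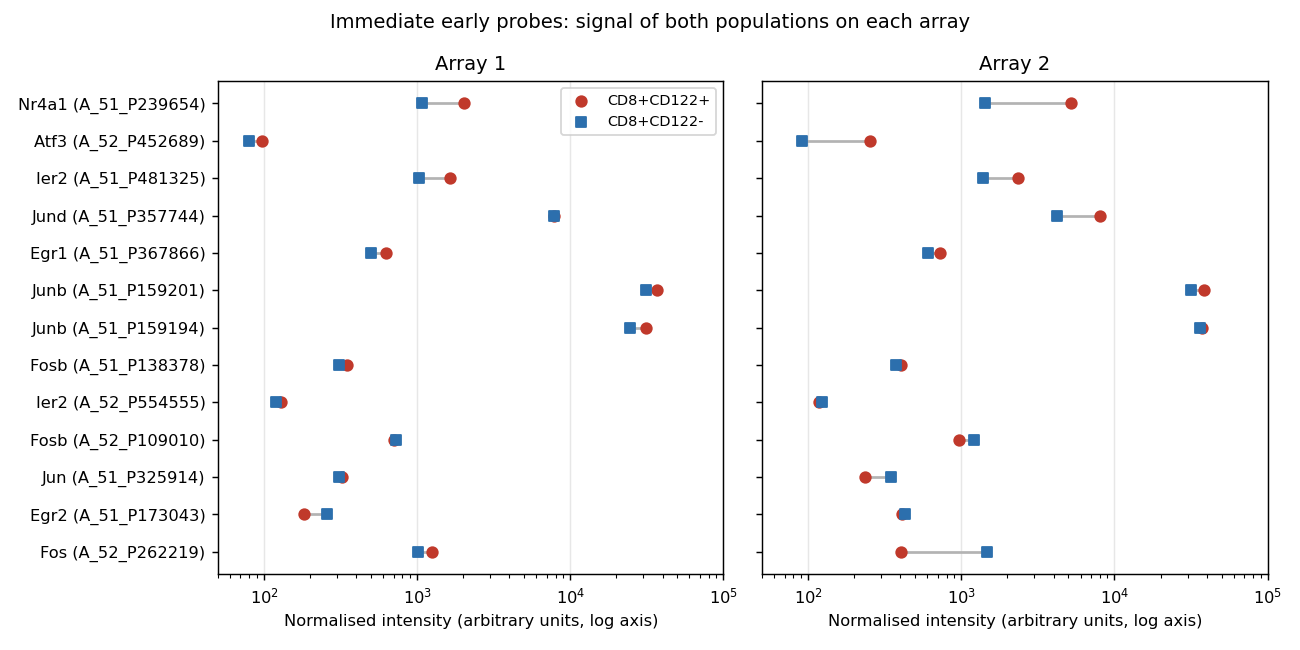
Normalised intensity (arbitrary units, log axis) of each member probe in CD8+CD122+ cells (circles) and CD8+CD122- cells (squares), with array 1 on the left and array 2 on the right; probes are ordered by mean log2 ratio. The pair of points of Nr4a1 is apart on both arrays, that of Fos is wide on array 2, where CD8+CD122+ cells had 403 and CD8+CD122- cells 1462, and those of Junb lie close together; levels of different probes are not comparable.

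**Figure D2:**
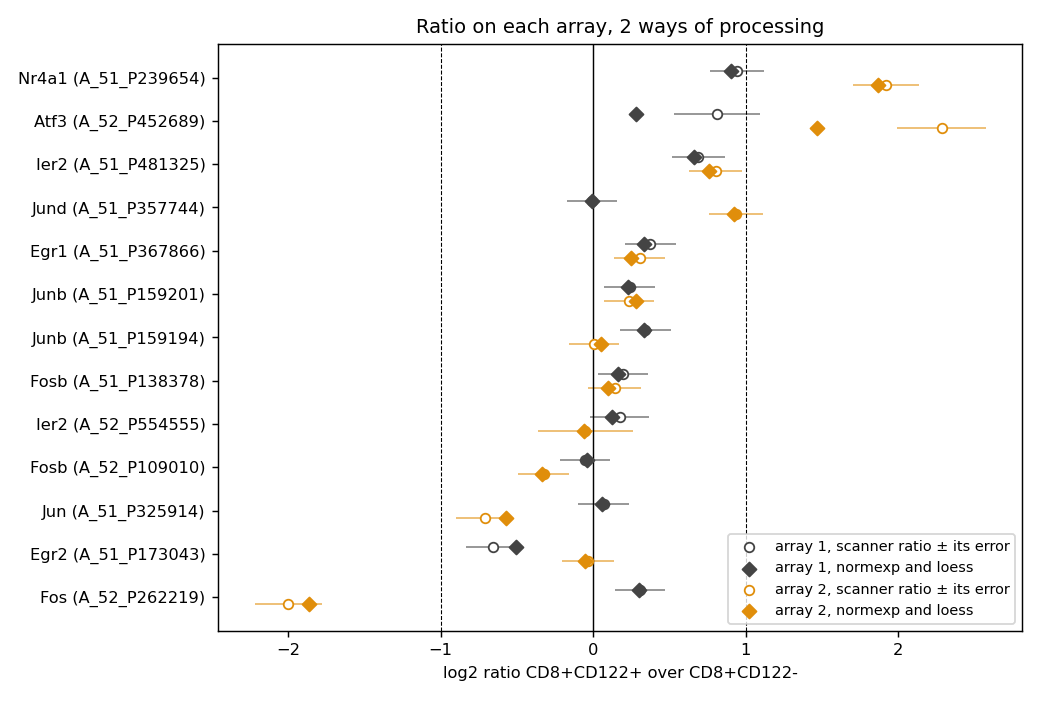
Log2 ratio of CD8+CD122+ over CD8+CD122- for each member probe on array 1 and array 2, by normexp and loess (diamonds) and as the scanner software gives it with its own error for the spot (open circles and bars), with dashed lines at 2-fold. By normexp and loess Nr4a1 was positive on both arrays (0.91 and 1.87), and Fos lay on opposite sides of 0 (0.30 and -1.86).

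For each of the 13 member probes both populations were well above background on either array, none was saturated and none was marked as an outlier, so no value below is a bound. For scale, 40 probes were printed 10 times on each array, and over the 37 of them that were tested the median SD of the log2 ratio between spots was 0.038 on array 1 and 0.050 on array 2, with the largest at 0.090 and 0.24. The sort was checked on its own marker: Il2rb, which encodes CD122, had log2 ratios of 2.60 on array 1 and 2.34 on array 2 (2.47 ± 0.18, SD, n = 2). Cd8a (-0.31 and -0.91) and Cd8b1 (-0.48 and -0.86), the chains of the CD8 coreceptor, were lower in CD8+CD122+ cells and bright in both populations. Between 69.5% and 83.4% of spots were well above background by population and array, and the arrays' log2 ratios correlated at r = 0.38 across all tested probes, which are not independent.

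The upstream DNA of the 3 members that were 2-fold apart on an array is given here to show which binding sequences the genes with the largest ratios carry. The windows are the 250 bases before the RefSeq start site in GRCm38.p6, 5′ to 3′ on the gene's own strand, for Nr4a1 at chr15:101266596-101266845 (plus strand), Atf3 at chr1:191183334-191183583 (minus strand) and Fos at chr12:85473640-85473889 (plus strand). Capitals mark the half-site TGACG (or CGTCA, its other strand), which proteins of the CREB and ATF families bind, and in Nr4a1 also the 1 match to the EGR motif GCGNGGGCG on the other strand.
Nr4a1: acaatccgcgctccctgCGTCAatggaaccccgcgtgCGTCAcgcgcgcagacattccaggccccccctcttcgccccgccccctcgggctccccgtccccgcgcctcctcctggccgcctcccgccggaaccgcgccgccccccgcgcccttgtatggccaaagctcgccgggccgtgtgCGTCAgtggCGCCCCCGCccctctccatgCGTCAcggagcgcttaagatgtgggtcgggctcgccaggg
Atf3: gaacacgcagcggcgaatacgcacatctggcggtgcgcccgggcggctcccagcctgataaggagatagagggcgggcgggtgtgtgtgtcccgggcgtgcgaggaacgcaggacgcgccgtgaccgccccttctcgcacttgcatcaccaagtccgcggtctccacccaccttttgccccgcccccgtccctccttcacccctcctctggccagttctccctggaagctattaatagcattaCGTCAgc
Fos: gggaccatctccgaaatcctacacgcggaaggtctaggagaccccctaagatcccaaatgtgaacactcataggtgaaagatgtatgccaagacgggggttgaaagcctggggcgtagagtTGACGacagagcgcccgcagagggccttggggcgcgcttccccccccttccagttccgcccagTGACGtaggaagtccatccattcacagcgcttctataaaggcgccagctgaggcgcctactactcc
The Nr4a1 window holds 4 half-sites, at -233, -213, -69 and -40 from the start site, and the EGR motif begins at -60. The Fos window holds 2, at -129 and -66, and the Atf3 window holds 1, at -7. A half-site was found in 17.8% of 32851 windows of the same length over all genes in the table, 2 or more in 3.9% and 4 or more in 0.137% (45 windows). No member window held the full palindrome TGACGTCA (1.55% of all windows) or the AP-1 motif TGANTCA (6.75%). Windows were given for 8 of the 10 members. Fosb and Junb held 1 half-site each, Jun and Jund none, and the Egr2 windows, of which there are several that mostly overlap, 0 to 2. The EGR motif (4.7% of all windows) was also found once in Fosb, and the CArG box, the core of the serum response element (1.47%), in 4 of the 5 Egr2 windows. A match is a run of letters and not a bound site, and no match says only that these letters are not in the window.

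Fos, the AP-1 subunit that binds DNA only with a Jun partner, had a normalised intensity of 1240 in CD8+CD122+ cells and 1009 in CD8+CD122- cells on array 1. On array 2 it had 403 in CD8+CD122+ cells and 1462 in CD8+CD122- cells. The population with the higher signal was thus not the same on the 2 arrays, but on each array it was the one in Cy5. A dye effect on this probe was not tested. The log2 ratios of 0.30 and -1.86 average -0.78 ± 1.53 (SD, n = 2, limma adjusted p = 0.913). The log2 ratio of array 2 minus that of array 1 was -2.16, and 13 of the 30794 tested probes (0.0422%) were at least as far apart. The scanner software's own ratios for the Fos spot were 0.31 ± 0.16 on array 1 and -1.998 ± 0.22 on array 2 (log2, ± the software's error), so the 2 arrays are also apart by many times the error of a spot. The raw mean signals before any correction were 1481 in CD8+CD122+ cells and 883 in CD8+CD122- cells on array 1, and 360 in CD8+CD122+ cells and 1836 in CD8+CD122- cells on array 2.

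The log2 ratios of the B cell markers Ighm and Cd79b were lower on array 2 than on array 1, as that of Fos was. The 5 B cell markers Cd79a, Cd79b, Ms4a1, Ighm and Pax5, all tested, had a summed normalised intensity of 4495 in CD8+CD122+ cells and 4489 in CD8+CD122- cells on array 1, and of 3176 in CD8+CD122+ cells and 4825 in CD8+CD122- cells on array 2. Most of that sum was Ighm, the heavy chain of immunoglobulin M, with log2 ratios of 0.02 on array 1 and -0.66 on array 2. Cd79b, a chain of the B cell receptor complex, had -0.20 and -0.76, while Cd79a, Ms4a1 and Pax5 stayed between -0.09 and 0.11 on both arrays. The CD8 chains were lower on array 2 as well, with Cd8a at -0.31 and -0.91 and Cd8b1 at -0.48 and -0.86. The Jun probe had log2 ratios 0.63 apart between the arrays, and 5.87% of all tested probes were at least that far apart, in either direction. At the probes given here Ighm was also at least that far apart, while Cd79b, Cd8a and Cd8b1 were less far apart. The part of B cell RNA in the Fos ratio was not tested. The marker of CD4 T cells (Cd4, 0.09 and -0.12), the 4 tested of 7 myeloid markers (medians 0.06 and 0.07), 4 dendritic cell markers (0.03 and 0.04) and 3 tested of 4 NK cell markers (0.07 and 0.05) gave medians or ratios near 0. Among them the myeloid gene Lyz2, encoding lysozyme, had 0.77 and 0.33. A second, dimmer probe of the dendritic cell marker Itgax had 0.61 and 1.07, against 0.01 and 0.05 at the brightest Itgax probe, so the probes of Itgax disagree. The myeloid markers Itgam, S100a8 and S100a9, the NK cell marker Ncr1 and the erythroid marker Hbb-b1 did not enter the test. The erythroid marker Hba-a1 was tested and had log2 ratios of 0.10 and 0.14. Its intensity was 130 in CD8+CD122+ cells and 122 in CD8+CD122- cells on array 1. On array 2 it was 1007 in CD8+CD122+ cells and 915 in CD8+CD122- cells, and the arrays were not normalised to each other.

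Fosb, the second FOS protein, gave 346 in CD8+CD122+ cells and 309 in CD8+CD122- cells on array 1, and 401 in CD8+CD122+ cells and 374 in CD8+CD122- cells on array 2. The difference was small on both arrays, with log2 ratios of 0.16 and 0.10 (mean 0.13 ± 0.04, SD, n = 2, limma adjusted p = 0.867). With median centring the ratio on array 2 was -0.22. Another probe, A_52_P109010, is named Fosb only in the file of array 2, and its deposited position is on chromosome 2, whereas Fosb lies on chromosome 7 in RefSeq. It gave log2 ratios of -0.04 and -0.33 (-0.19 ± 0.21, limma adjusted p = 0.885) and is not read as Fosb here.

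Junb, the JUN family member that is abundant in T cells, was measured by 2 probes whose target sequences overlap by 22 bases. Probe A_51_P159201 had 36562 in CD8+CD122+ cells and 31131 in CD8+CD122- cells on array 1, and 38632 in CD8+CD122+ cells and 31783 in CD8+CD122- cells on array 2. Probe A_51_P159194 had 31120 in CD8+CD122+ cells and 24642 in CD8+CD122- cells on array 1, and 37398 in CD8+CD122+ cells and 36077 in CD8+CD122- cells on array 2. All 4 log2 ratios were positive and small, at 0.23 and 0.28 for the first probe (0.26 ± 0.04, SD, n = 2, limma adjusted p = 0.747) and 0.34 and 0.05 for the second (0.19 ± 0.20, limma adjusted p = 0.884). Median centring gave 0.99 and -0.23 for the first probe and 1.07 and -0.46 for the second, so the sign on array 2 depended on the normalisation. Of the 13 member probes these were the ones that median centring moved furthest on either array.

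Jund, the JUN protein known for steady expression in resting cells, had 7776 in CD8+CD122+ cells and 7823 in CD8+CD122- cells on array 1. On array 2 it had 7997 in CD8+CD122+ cells and 4208 in CD8+CD122- cells. The populations were close on the first array and 1.90-fold apart on the second, with log2 ratios of -0.01 and 0.93 (0.46 ± 0.66, SD, n = 2, limma adjusted p = 0.885). With median centring both were positive, at 0.59 and 0.46. Jun, the founding partner of Fos, had 323 in CD8+CD122+ cells and 309 in CD8+CD122- cells on array 1, and 234 in CD8+CD122+ cells and 348 in CD8+CD122- cells on array 2. Its log2 ratios of 0.06 and -0.57 had the same order of signs as those of Fos, over a smaller range (-0.26 ± 0.45, SD, n = 2, limma adjusted p = 0.910). As for Fos, the higher Jun signal was in Cy5 on each array. That of Jund was in Cy3 on each array, by very little on array 1. Opposite signs on the 2 arrays, in either dye order, were found for 46.6% of all tested probes.

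Atf3, a stress-induced repressor of the ATF family, was dim. It had 96.2 in CD8+CD122+ cells and 79.1 in CD8+CD122- cells on array 1, and 252 in CD8+CD122+ cells and 91.1 in CD8+CD122- cells on array 2. CD8+CD122+ cells gave the higher signal on each array, mainly on array 2, by log2 ratios of 0.28 and 1.47 (0.87 ± 0.84, SD, n = 2, limma adjusted p = 0.851). The offset added during background correction shrinks ratios of such dim probes. The scanner software's own ratios, made without it, were 0.81 ± 0.28 on array 1 and 2.29 ± 0.29 on array 2 (log2, ± the software's error), and their mean was 1.55.

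Egr1, a zinc finger factor induced by antigen receptor signalling through the ERK pathway, had 628 in CD8+CD122+ cells and 499 in CD8+CD122- cells on array 1, and 725 in CD8+CD122+ cells and 610 in CD8+CD122- cells on array 2. Its log2 ratios were close on the 2 arrays, at 0.33 and 0.25 (0.29 ± 0.06, SD, n = 2, limma adjusted p = 0.723), although with median centring that of array 2 was -0.13. Egr2, a relative known for restraining T cell activation, had 181 in CD8+CD122+ cells and 256 in CD8+CD122- cells on array 1, and 411 in CD8+CD122+ cells and 427 in CD8+CD122- cells on array 2. It was lower in CD8+CD122+ cells on each array, mainly on the first, with log2 ratios of -0.50 and -0.06 (-0.28 ± 0.32, SD, n = 2, limma adjusted p = 0.883), and it kept both signs with median centring (-0.29 and -0.39).

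Nr4a1, the gene of Nur77, had 2022 in CD8+CD122+ cells and 1078 in CD8+CD122- cells on array 1. On array 2 it had 5219 in CD8+CD122+ cells and 1428 in CD8+CD122- cells. The CD8+CD122+ value was the higher on each array. Intensities were normalised within arrays only, so levels are not compared between arrays. The log2 ratios were 0.91 and 1.87, with a mean of 1.39 ± 0.68 (SD, n = 2), which is 2.62-fold, the highest mean of the 13 probes and above that of 99.8% of all tested probes (limma adjusted p = 0.705). The ratio of array 1, 1.88-fold, kept Nr4a1 just outside the rule of size. With median centring it was 1.31 on array 1 and 1.42 on array 2, and Nr4a1 was then the 1 member past that rule. The 2 other members of the nuclear receptor family were not alike: Nr4a2 had log2 ratios of 0.51 on array 1 and 2.15 on array 2, and Nr4a3 had 0.01 and 0.39.

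Ier2 was measured by 2 probes 139 bases apart in the deposited positions. The brighter probe, A_51_P481325, had 1632 in CD8+CD122+ cells and 1033 in CD8+CD122- cells on array 1, and 2351 in CD8+CD122+ cells and 1389 in CD8+CD122- cells on array 2. Its log2 ratios were 0.66 and 0.76 (0.71 ± 0.07, SD, n = 2, 1.64-fold), and its limma adjusted p of 0.474 was the lowest of the 13 probes with loess. With median centring the ratios were 1.05 and 0.33 and the limma adjusted p of this probe was 0.99998, and the lowest was then that of Nr4a1 (0.409). The dim probe, A_52_P554555, had 130 in CD8+CD122+ cells and 119 in CD8+CD122- cells on array 1, and 117 in CD8+CD122+ cells and 122 in CD8+CD122- cells on array 2. Its log2 ratios of 0.12 and -0.06 (0.03 ± 0.13, limma adjusted p = 0.963) did not show the difference that the brighter probe showed, so the 2 probes of Ier2 disagree.

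**Figure D3:**
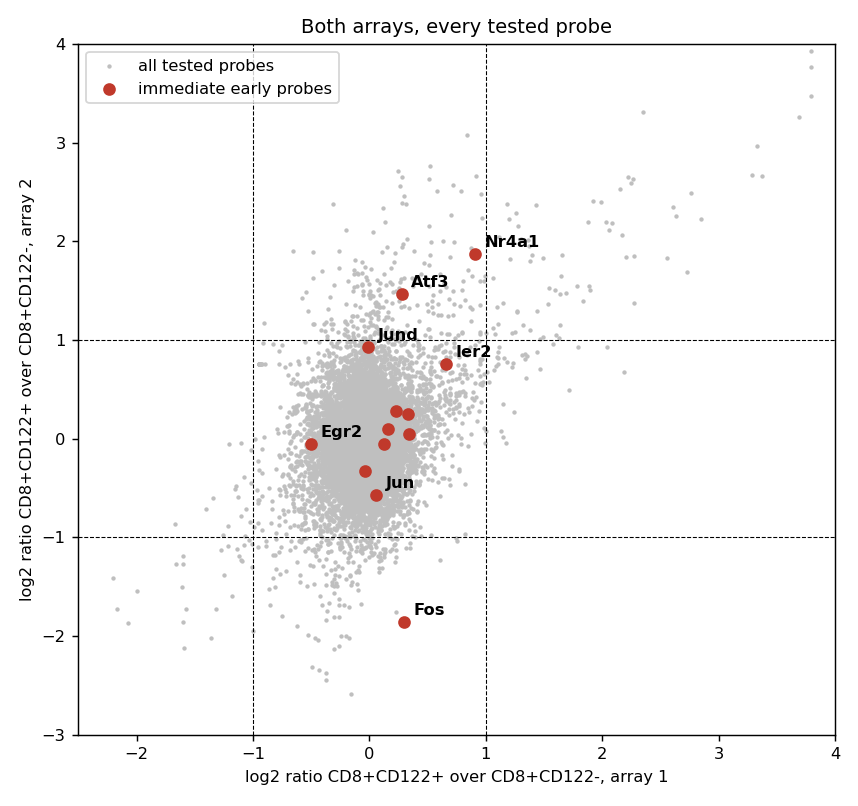
Log2 ratio of CD8+CD122+ over CD8+CD122- on array 1 (horizontal) against array 2 (vertical) for all tested probes (grey) and the 13 member probes (coloured), with dashed lines at 2-fold; 7 probes lie outside the axes, and Egr1, Junb, the dim Ier2 probe and both probes named Fosb are not labelled. Nr4a1 lies at 0.91 and 1.87, next to the corner of probes 2-fold higher on both arrays, and Fos lies below the cloud at 0.30 and -1.86.

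The genes whose pattern was most like that of Nr4a1, by Euclidean distance over the log2 ratios of the 2 arrays and with a gene taken at its brightest probe, were Bcl2a1b (0.69 on array 1 and 1.84 on array 2, distance 0.22), Gzma (0.99 and 1.65, distance 0.23), Nfil3 (1.11 and 2.05, distance 0.27), Runx2 (1.06 and 1.63, distance 0.29) and Mki67 (0.81 and 1.60, distance 0.29). Gzma encodes granzyme A of cytotoxic granules, Nfil3 and Runx2 encode transcription factors, Bcl2a1b an anti-apoptotic protein of the BCL2 family and Mki67 the proliferation marker Ki-67. Likeness over 2 arrays is a description of these hybridisations.

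Other genes of the response were read from 3 lists, each gene at its brightest tested probe, among 16059 named genes; limma called 0 of them. Over all these genes the median log2 ratio was 0.012 on array 1 and -0.0063 on array 2, and the SD of the log2 ratios across genes was 0.24 and 0.36. Of 34 other immediate early genes, all of them tested, 2 passed the rule of size as higher and 0 as lower, where 0.392% of all genes were higher and 0.131% lower. These were Nfkbiz, a nuclear regulator of NF-kappa-B (1.25 on array 1 and 2.29 on array 2, 1.77 ± 0.73, SD, n = 2, limma adjusted p = 0.662), and Rgs1, which curbs signalling from chemokine receptors (1.40 and 1.86, 1.63 ± 0.33, limma adjusted p = 0.457). With loess the ratios of the list were larger on array 2, with a median of 0.50 there and 0.18 on array 1. With median centring this order was reversed, with medians of 0.61 on array 1 and 0.22 on array 2. With loess, 11 of the 34 genes (32.4%) were at least 2-fold higher on array 2, where 1.35% of all genes were. On array 1 the count was 2 of 34 (0.548% of all genes). Positive ratios on both arrays were found for 21 of 34 genes (61.8%) and negative ratios on both for 3, against 28.3% and 25.3% of all genes. With median centring 20 were positive on both, where 14.97% of all genes were. The shares of all genes were not matched to the list for brightness, and the list was chosen with earlier results of these data known.

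Klf10, a TGF-beta-inducible repressor, had a mean between those of Nfkbiz and Rgs1, with 0.71 on array 1 and 2.57 on array 2, and did not pass the rule of size. Cd69, the early activation antigen, had 0.67 and 1.06, and the 2 NF-kappa-B inhibitors Nfkbia (0.03 and 2.09) and Tnfaip3 (-0.04 and 1.74) were apart on array 2 only, chosen here after their values were seen. The lowest were Sik1, a salt-inducible kinase (-0.37 and -1.22, the 1 gene of the list at least 2-fold lower on array 2, where 0.915% of all genes were), Egr3 (-0.41 and -0.69) and Zfp36l1, an RNA-binding protein that destabilises messages (-0.22 and -0.42). A second Sik1 probe had 0.84 on array 2, so the probes of Sik1 disagree in sign there. The fourth EGR gene, Egr4, had 0.11 on both arrays. Ier3, a regulator of cell survival, had 0.82 and -0.97, with the signs in the same order as for Fos. Its higher signal was thus in Cy5 on each array. With loess, 10 of the 34 genes had opposite signs at the brightest probe. Dusp1, Zfp36, Myc, Ccn1 and Arc had the order of Ier3, and Btg1, Klf2, Klf6 and Tnfaip3 had the reverse, with the higher signal in Cy3. Ier3 and Egr4 were chosen after their values were seen.

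Of 20 other AP-1 and related leucine zipper genes, 17 were tested, and 0 were 2-fold apart on both arrays. Their medians were -0.01 on array 1 and 0.30 on array 2 with loess, and 0.23 and 0.12 with median centring. With loess, 7 were positive throughout, 3 negative throughout and 7 differed in sign between arrays. The 3 highest were Maff, a small MAF protein (0.84 and 3.08), Crem, a cyclic AMP response modulator (0.28 and 1.97), and Cebpb (0.59 and 1.26), and these 3 were the ones at least 2-fold higher on array 2 (17.6% of the list, 1.35% of all genes). With loess all 3 were larger on array 2, as Atf3 and Nr4a1 were. For Nr4a1 the arrays were close with median centring, at 1.31 on array 1 and 1.42 on array 2. The lowest were Creb1 (-0.43 and -0.96), Atf5 (-0.08 and -0.12) and Maf (-0.07 and -0.04). The other 2 tested probes of Creb1 lay near 0, between -0.01 and 0.02 on array 1 and between -0.09 and 0.09 on array 2, and the other Cebpb probe had 0.09 and 0.34. Fosl2, the third FOS protein tested, had -0.30 and 0.63 at its brighter probe and 0.24 and 2.71 at the other. Fosl1 and Batf2 did not enter the test, and the probe named Atf6 was left out because its deposited chromosome is not that of the gene.

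Of 20 kinases, factors and partners that act upstream of the members or bind them, 19 were tested and 0 were 2-fold apart on both arrays. The medians were -0.02 on array 1 and -0.08 on array 2, and 9 of 19 genes (47.4%) were negative on both, against 25.3% of all genes. With median centring that count was 3 of 19, where 12.6% of all genes were. The medians were then 0.15 on array 1 and -0.41 on array 2. The lowest was Nab2, a corepressor that binds EGR proteins and is itself an EGR target, with -0.77 and -1.37 (-1.07 ± 0.42, SD, n = 2, limma adjusted p = 0.657). Elk4 (-0.32 and -0.53) and Elk3 (-0.24 and -0.48), ternary complex factors that work with serum response factor, came next at their brightest probes, and Srf itself had 0.09 and -0.40. The other tested probes did not show this on both arrays: those of Elk4 had -0.01 and 0.16, and 0.03 and -0.16, and that of Elk3 had 0.04 and -0.20. The highest were Nab1 (0.20 and 0.40), Nfatc2 (0.05 and 0.10) and Rxra (0.00 and 0.08), a nuclear receptor that pairs with Nr4a1. Nab2, Egr2 (only -0.06 on array 2) and Egr3 had negative ratios on both arrays, as 25.3% of all genes did. Egr1 (with median centring, -0.13 on array 2) and Egr4 had positive ones. This grouping was made with the values known and was not tested.

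**Figure D4:**
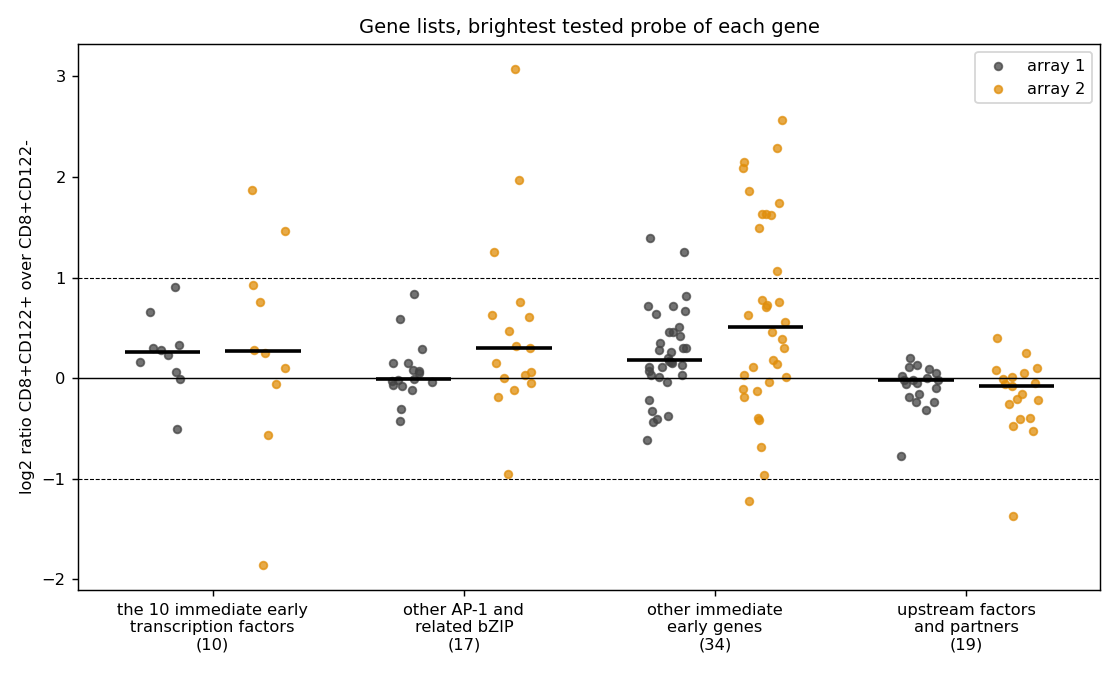
Log2 ratio of CD8+CD122+ over CD8+CD122- on array 1 and array 2 for the 10 immediate early transcription regulators and the genes of each list, one point per gene at its brightest tested probe, with the median as a bar and dashed lines at 2-fold; sideways scatter has no meaning. With loess, as drawn, the median of the other immediate early genes was 0.18 on array 1 and 0.50 on array 2. That of the upstream genes was -0.02 and -0.08. With median centring the other immediate early genes had 0.61 and 0.22.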

How the data were processed

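The intensity values of spots and backgrounds, the processed signals, the flags and the log10 ratios were made with Agilent Feature Extraction, named in the submitters' processing notes. Per the file headers its version was A.7.5.1 on array 1, while array 2 has 8.1.1.1. The deposited value table holds the same log10 ratios, with the sign turned on array 1, so both its columns are CD8+CD122- over CD8+CD122+, opposite to the direction used here, and both medians are 0. For the deposited positions a genome build is not given in the sources used.

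Each array had 43790 spots, 2256 of them controls. Mean signals were corrected with normexp (offset 50) against the local median background and normalised by loess within arrays in limma 3.58.1 (R 4.3.3), with controls and outlier spots at weight 0. Normalised intensities are on a linear scale per channel. Tested were the 30794 probes well above background in the same population on both arrays. The fit was lmFit and eBayes on the log2 ratios (1 residual degree of freedom, two-sided, Benjamini-Hochberg over all probes). A dye term would leave 0 degrees of freedom. SD and ± are over the 2 arrays. The number of arrays limits the precision.

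Probes were named through RefSeq (GRCm38.p6) by accession (21848), symbol (5774) or synonym (4384), 32006 in all (77.7%). For gene lists 1923 probes whose deposited chromosome differs from that of the gene were left out, a choice made after seeing the data. Named beside the members were the genes of each list past the rule of size, its 3 highest and 3 lowest with the same sign on both arrays, and the 5 genes nearest to the member with the largest mean. Some list genes are not reported here. The members, lists and tests were chosen with earlier results of these data known. The fit was tested on simulated data.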

Additional observations from a re-analysis of the deposited data

How the results depend on the processing

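Under median centring, the processed signals, an offset of 10, no filter on dim probes, the stricter filter and the deposited value table, the mean log2 ratio of each of the 13 member probes kept its sign, and limma called 0 probes under each setting in which it was run. Probes at least 2-fold higher on both arrays numbered 78, but 199 with the processed signals and 135 with the offset of 10. Those 2-fold lower numbered 25, but 16 with median centring, 85 with the processed signals and 47 with the offset of 10. Median centring put 1 member probe (Nr4a1) and 1 gene of the other leucine zipper list past the rule of size, where there were 0, and the processed signals put 1 upstream gene past it as lower, where there were 0. Median centring moved the median of all tested probes to 0.07 on array 1 and -0.10 on array 2.

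With 1 array left out, the rule of size rests on the other alone and limma cannot be run. The counts then ranged between 109 and 336 for higher and 42 and 219 for lower probes, 0 and 2 for higher and 0 and 1 for lower member probes, 0 and 3 for higher leucine zipper genes, 2 and 11 for higher and 0 and 1 for lower other immediate early genes, and 0 and 1 for lower upstream genes; the high end was without array 1 each time. The log2 ratio without 1 array lay between -1.86 and 0.30 for Fos, -0.57 and 0.060 for Jun, and -0.0087 and 0.93 for Jund, each with the sign opposite to its mean without array 2, and between -0.057 and 0.12 for the dim Ier2 probe, with the opposite sign without array 1. The cause was not tested. No paired analysis was possible because the 2 arrays form a single group, with no second group to share replicate numbers, beyond the pairing of the populations within each array that every ratio already holds. The precision rests on 2 arrays, and the signal over background limits dim probes such as those of Atf3 and the second Ier2 probe.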
